A study of Homo sapiens with 8 samples.

Results

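Progesterone receptor (PR) binding sites that were called in both T47D lines of the study, and at which no glucocorticoid receptor (GR) peak was called after dexamethasone, numbered 11505 of 51444 merged regions (22.4%, 95% interval 22.0046 to 22.7). They were chosen from the called peaks themselves. Peaks off chromosomes 1 to 22 and X and peaks overlapping a peak of the input list were dropped, PR peaks after R5020 (A1-2 and MTVL lists) were merged with GR peaks after dexamethasone wherever intervals overlapped by at least 1 bp, and regions with both PR lists and without the GR list were taken. Below, sites without GR are those without a called GR Dex peak of A1-2 cells, and 38 of them overlapped a GR peak of another list. The 11528 other regions with PR in both lines overlapped a GR Dex peak, so that the sites without GR made up 49.95% (49.3 to 50.6) of the 23033 regions with PR in both lines. Over all merged regions 35.4% overlapped a GR peak after dexamethasone. Since that list was part of the rule, nothing is read from these shares.

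Binding was mapped by ChIP-seq, where chromatin is pulled down through an antibody to the receptor and its DNA sequenced. The cells were derivatives of T47D, a long-established line from human breast cancer. The series describes T47D A1-2 as expressing both receptors, and its labels call T47D MTVL WT the control line. Both were kept in hormone-stripped serum and then without serum, and were left untreated or exposed for 60 min to 10 nM of the synthetic progestin R5020 or of the synthetic glucocorticoid dexamethasone (Dex). PR was precipitated from A1-2 and MTVL cells, untreated and after R5020, with the same antibody. GR was precipitated from A1-2 cells only, untreated, after Dex and after R5020, with a mix of antibodies, and input DNA came from A1-2 cells. With 1 library per condition, differences between conditions cannot be checked against replicates and were not tested. The 95% intervals are exact, run over regions and cover counting error only. Read depth was unknown, and a site without a called peak may hold a signal under the calling threshold.

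PR and GR are ligand-activated transcription factors of the steroid receptor family with closely related DNA-binding domains. Both bind as dimers to the same kind of palindromic hormone response element, so a site that takes PR can in principle take GR. Progestins act through PR in the mammary epithelium to drive side branching and alveolar development, and glucocorticoids act through GR on differentiation, metabolism and inflammation in many tissues. Which sites are occupied in a given cell depends also on chromatin access and on other factors bound nearby.

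The sites without GR were mostly plain pairs of peaks. In 11400 of them (99.1%, 98.9 to 99.3) exactly 1 peak of each PR list was joined, in 88 there were 2 A1-2 peaks at 1 MTVL peak, in 12 there were 2 MTVL peaks at 1 A1-2 peak, and in 5 there were 2 of each. They held 11598 of 28262 peaks in the A1-2 PR list (41.0%) and 11522 of 43070 in the MTVL PR list (26.8%). The peaks of the lines lay nearly on top of each other. The rule imposes part of this, as PR peaks with no GR peak between them must overlap to be merged. Only overlapping pairs were measured. The median distance between their midpoints was 37.5 bp (quartiles 17.5 and 71 bp), compared with 38.5 bp at the PR sites with GR, and midpoints were more than 500 bp apart in 0.792% of the peak pairs (0.639 to 0.971), compared with 2.37% (2.11 to 2.66). The median A1-2 peak was 607 bp wide and the median MTVL peak 707 bp, compared with 709 and 772 bp at the PR sites with GR. In 56.7% of the pairs (55.8 to 57.6) the A1-2 peak lay wholly inside the MTVL peak, compared with 46.5% (45.6 to 47.4). Whole regions had a median width of 728 bp, compared with 831 bp. The regions with GR take in the GR peak itself, so nothing is read from this last difference. The lists behind the other contrasts chose the sites, so those are a description only.

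Each peak has a deposited score, which grows with its statistical strength and starts at 100. In A1-2 cells the median score was 194 (quartiles 136 and 317), compared with 546 at the PR sites with GR and 244 over the whole A1-2 list. In MTVL cells the median was 462 (quartiles 236 and 964), compared with 914 at the PR sites with GR and 313 over the whole MTVL list. In the A1-2 list these sites had a lower median than the list as a whole, and in the MTVL list a higher one. Both lists were part of the rule, which leaves out unlike parts of them. MTVL-only regions numbered 18796, with a median score of 187, and A1-2-only regions 2926, with a median of 127. No trait of the sites is read from this order. Scores are each library's own and do not compare levels between the lines. An A1-2 score under 200 was found at 6020 of the sites and an MTVL score under 200 at 2216, and 1762 were under 200 in both. At the upper end 270 sites scored 1000 or more in A1-2 cells, and 2756 did in MTVL cells.

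**Figure D1:**
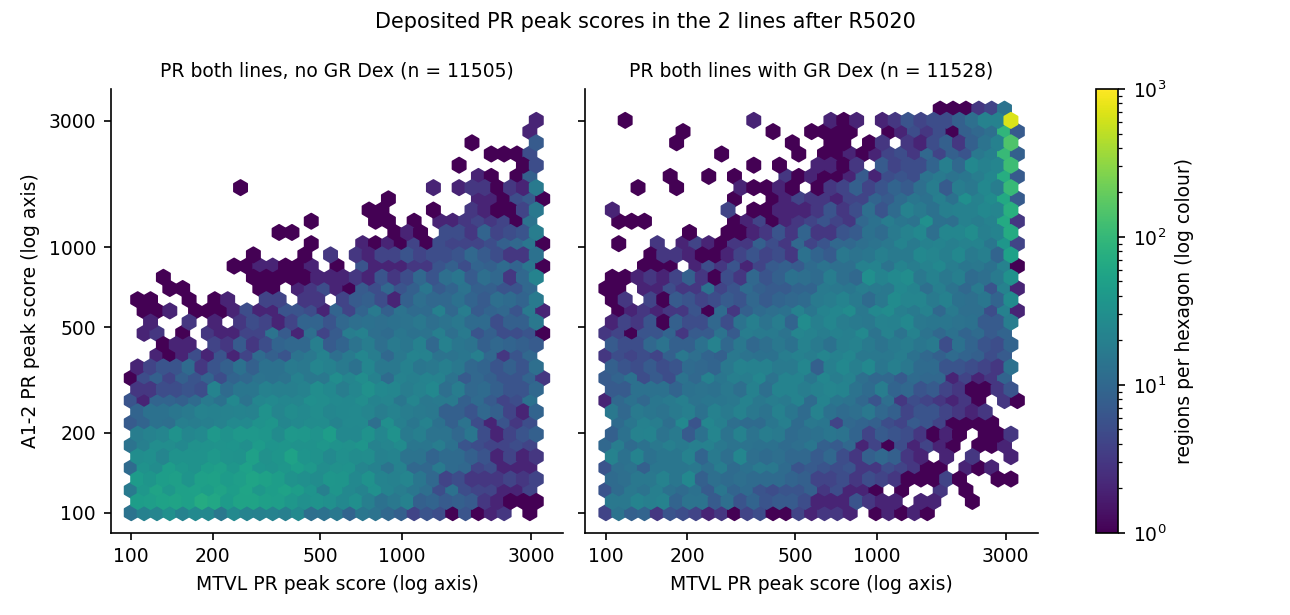
Each hexagon counts regions by the score of their MTVL PR peak (horizontal, log axis) and of their A1-2 PR peak (vertical, log axis), for the 11505 PR regions of both lines without a GR Dex peak on the left and the 11528 with one on the right; colour is the number of regions on a log scale. Without GR the regions spread along the lower edge, with a median A1-2 score of 194, and with GR they fill the diagonal up to the ceiling near 3100, with a median of 546. The lists behind the scores chose the sites.

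At similar MTVL scores the A1-2 scores were lower where GR was not called. The lists behind these scores and the GR call chose the sites, so this order is a description only. Among regions with an MTVL score from 1000 to 3100, the median A1-2 score was 352 at the 2473 sites without GR and 911 at the 3758 with GR. Among those from 500 to 1000 the medians were 214 and 441.5, and among those from 200 to 500 they were 168 and 282. The rank correlation of the scores of the lines was 0.505 over the 11505 sites and 0.752 over the 11528 sites with GR, given as a description across regions that share their libraries. The A1-2 scores spanned a narrower range without GR (quartiles 136 and 317) than with it (270 and 1222). How that range bears on the correlations was not tested. GR after Dex and PR of A1-2 cells came from the same line and PR of MTVL cells from another, and how that bears on these values was not tested.

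The share of sites without GR went down with the score. The lists behind the share and the scores chose the sites, so this is a description only. A weak GR signal under the calling threshold would not be seen. Among regions with PR in both lines the share was 82.4% in the lowest decile of the A1-2 score, 50.2% in the sixth and 3.602% (2.88 to 4.45) in the highest. By the MTVL score it was nearly flat over the 4 lowest deciles, between 60.4% and 63.1%, and reached 15.2% (13.8 to 16.8) in the highest. With the lower of the PR scores of a region as the measure, the share was 71.9% from 100 to 200, 52.4% from 200 to 500, 29.2% from 500 to 1000 and 8.81% (7.80 to 9.91) from 1000 to 3100. From 3100 up, where the score reaches a ceiling and no longer ranks sites, 1 of 569 regions was without a GR peak.

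**Figure D2:**
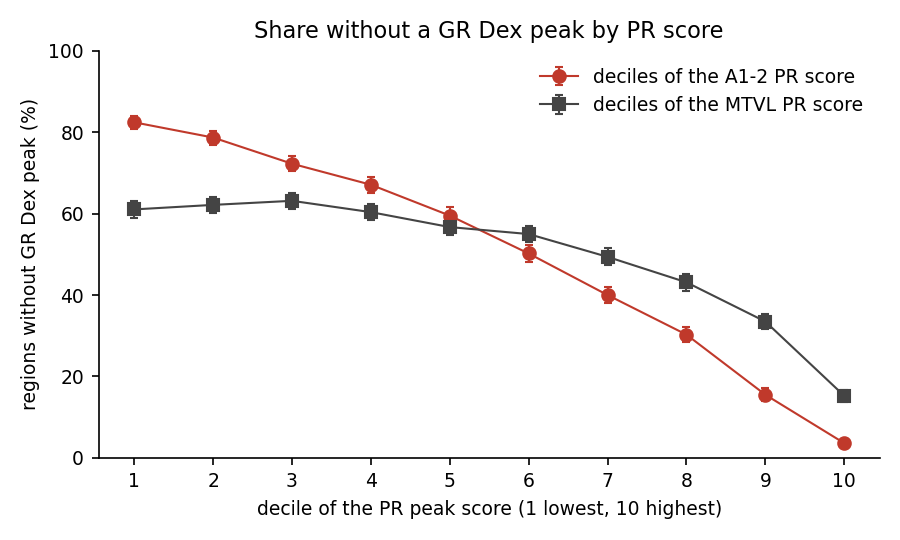
The share of PR regions of both lines that had no GR Dex peak (vertical, percent) is plotted by decile of the region's A1-2 PR score (circles) or MTVL PR score (squares), with exact 95% intervals. The A1-2 curve runs from 82.4% to 3.602%, and the MTVL curve stays above 60% over the 4 lowest deciles and ends at 15.2%. The lists behind the share and the scores chose the sites.

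The strongest sites without a GR Dex peak, ranked by the lower of their PR scores, were few. The first, chr20:3998643-3999786 (hg19 throughout), scored 3100 in both lines, and the nearest GR Dex peak was 10841 bp away. It was the 1 region from 3100 up, and it overlapped a GR peak after R5020 with a score of 154. The next was chr8:81665006-81666427, with 3073 in A1-2 and 3100 in MTVL cells, 6665 bp from a GR Dex peak. The region chrX:22004395-22005205 scored 2685 and 3100, chr17:39174317-39175271 scored 2638 and 3100, and chr2:11648298-11649007 scored 2598 and 3100. The last of these had a GR Dex peak 1138 bp away, and chr17:39174317-39175271 had none within 38797 bp. None of these 4 overlapped a GR peak after R5020 or an untreated peak.

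Some sites scored near the top of the MTVL list and near the threshold in the A1-2 list. These, and those of the other direction below, were chosen after their values were seen. Of the 283 sites with an MTVL score of 3100 or more, 17 scored under 200 in A1-2 cells and 100 scored 1000 or more. At chr12:91782016-91782999 the scores were 112 in A1-2 and 3100 in MTVL cells, and the site also had an untreated PR peak in MTVL cells (score 306). At chr10:76886809-76887915 they were 117 and 3100. In the other direction no such extreme was found. Where the MTVL score was under 200, the highest A1-2 score was 789, at chr7:18863578-18864261, with 138 in MTVL cells. The next was chrX:149671565-149672300, with 716 and 156.

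Whether GR was recovered at these sites under the progestin was read from the GR peaks of A1-2 cells after R5020, a list the rule did not use. Of the 11505 sites 30 (0.261%, 0.176 to 0.372) overlapped such a peak, compared with 200 of the 11528 PR sites with a GR Dex peak (1.73%, 1.504 to 1.99) and 1.34% of all merged regions. The difference, with GR Dex minus without, was 1.47 percentage points (1.22 to 1.74). Much of it lay at the strongest sites. Of the 200, 113 lay among the 568 regions with PR scores from 3100 up (19.9%, 16.7 to 23.4), a range that held 1 site without GR. Weighted to the score tiers of the sites without GR, the difference was 0.235 points. In single tiers the shares were 0.170% without and 0.514% with GR from 100 to 200, 0.315% and 0.318% from 200 to 500, and 0.413% and 0.725% from 500 to 1000, and their intervals overlapped in each. From 1000 to 3100 they were 0.787% (0.0955 to 2.82) and 1.75% (1.28 to 2.33). Of the 687 merged regions with a GR R5020 peak, 266 had GR Dex and PR in A1-2 but not in MTVL cells, 14.1% of that class. Among regions with PR in MTVL cells only the share was 0.117%, lower than at the sites without GR. Among the 2926 with PR in A1-2 cells only it was 2.22% (1.72 to 2.82), higher than at the sites.

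The 30 sites with a GR R5020 peak had a median width of 1069 bp, where all the sites together had 728 bp, and 0 of them lay in a run of close peaks. Their GR R5020 peaks had a median score of 246, compared with 158 at the PR sites with GR Dex and 240 over that list, and their midpoints lay a median of 242.5 bp from that of the A1-2 PR peak, compared with 102 bp. The 5 highest GR R5020 scores stood at sites whose A1-2 PR scores ranged from 132 to 567, where the median of all the sites was 194. At chr1:200638343-200639591 the GR R5020 score was 2692, with PR scores of 160 in A1-2 and 320 in MTVL cells and the nearest GR Dex peak 84944 bp away. At chrX:129300102-129300791 it was 2156, with PR scores of 132 and 596. At chr1:154973143-154974959 it was 1759, with 252 and 438, and at chr5:96269734-96271996 it was 1751, with 567 and 2196. At chr18:33709259-33710092 it was 1653, with 158 and 219 and no GR Dex peak within 191815 bp. Their offset from the PR peak is a property of these called intervals, and what they hold was not tested.

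**Figure D3:**
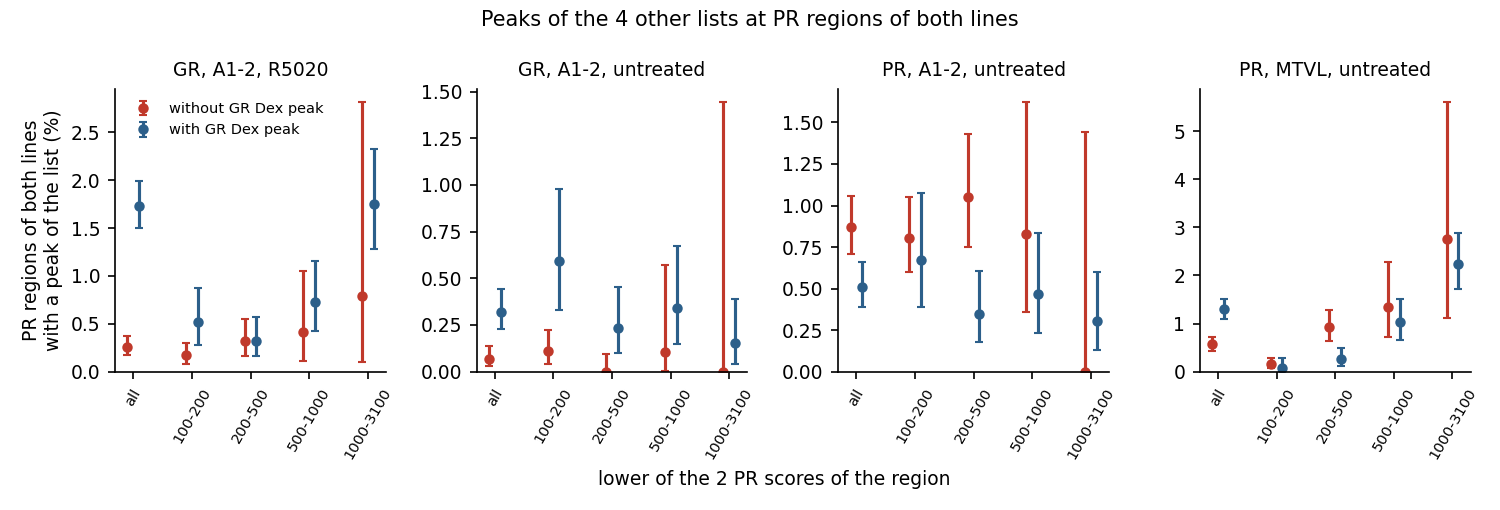
Points are the share (vertical, percent, each panel with its own scale from 0) of PR regions of both lines that overlapped a peak of a list the rule did not use, without (red) and with (blue) a GR Dex peak, over all regions and by the lower of the region's PR scores; bars are exact 95% intervals. GR R5020 peaks were at 0.261% of regions without and 1.73% with GR, and untreated A1-2 PR peaks at 0.869% and 0.512%.

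Without hormone GR was called at very few of the sites. An untreated GR peak overlapped 8 of them (0.0695%, 0.0300 to 0.137), compared with 37 PR sites with GR Dex (0.321%, 0.226 to 0.442) and 0.498% of all merged regions. Of the 256 regions behind the last share, 163 had GR Dex and PR in A1-2 but not in MTVL cells, 8.67% of that class. Among regions with PR in MTVL cells only the share was 0.0160%, lower than at the sites without GR. Among the 2926 with PR in A1-2 cells only it was 0.684% (0.418 to 1.05), higher than at the sites. These 8 untreated GR peaks scored from 100.1 to 184 with a median of 139.9, where the whole list had a median of 133. The highest was at chr12:49453589-49455229, where PR scored 140 in A1-2 and 116 in MTVL cells. Of the 8 sites 3 also had an untreated PR peak in A1-2 cells, on chromosomes 20, 3 and 11. No site had both an untreated GR peak and a GR peak after R5020, so that 38 of the 11505 (0.330%, 0.234 to 0.453) overlapped a GR peak of either list.

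Among PR regions of both lines, PR peaks of untreated A1-2 cells were called more often at sites without GR than at those with it. This order rests in part on 1 stretch of chromosome 6. An untreated PR peak of A1-2 cells overlapped 100 of the sites without GR (0.869%, 0.708 to 1.06), compared with 59 PR sites with GR (0.512%, 0.390 to 0.660) and 0.793% of all merged regions. The share over all regions lies within the first interval. The difference, with GR minus without, was -0.36 points (-0.58 to -0.14), and -0.33 points when weighted to the score tiers. In the tier from 200 to 500 the shares were 1.05% (0.752 to 1.43) without and 0.347% (0.180 to 0.606) with GR. The untreated peaks at these sites were strong ones of their list. Their median score was 493 over 119 peaks, compared with 160 over the 73 at PR sites with GR and 148 over the 630 peaks of the list. They lay closer to the midpoint of the R5020 peak, at a median of 65.25 bp compared with 239 bp. After R5020 the same sites were ordinary in the A1-2 list, with a median score of 252 where the list's was 244 and that of all the sites 194. In the MTVL list after R5020 their median score was 231, where the list's was 313 and that of all the sites 462. Outside the PR regions of both lines the order was not the same. Among A1-2 PR regions without an MTVL peak, 1.33% of 2926 without and 8.78% of 1880 with a GR Dex peak had an untreated A1-2 PR peak. Among MTVL PR regions without an A1-2 peak the shares were 0.101% of 18796 and 0.0917% of 1090.

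In untreated MTVL cells a PR peak overlapped 65 of the sites (0.565%, 0.436 to 0.720), compared with 149 PR sites with GR (1.29%, 1.09 to 1.52) and 0.465% of all merged regions. That order did not hold within tiers of the lower PR score. From 200 to 500 the shares were 0.919% (0.641 to 1.28) without and 0.260% (0.119 to 0.494) with GR, and from 1000 to 3100 they were 2.76% (1.12 to 5.60) and 2.25% (1.71 to 2.89). Of the 219 untreated MTVL peaks, 61 (27.9%) touched a site without GR and 145 (66.2%) a PR site with GR. They were broad, with a median width of 1349 bp at the sites without GR, and 1 of them, with a score of 477, spanned 3 of the sites on chromosome 1.

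Sites with a PR peak before hormone in both lines lay mostly among those without GR. There were 34 of them (0.296%, 0.205 to 0.413), compared with 8 PR sites with GR (0.0694%, 0.0300 to 0.137) and 0.0875% of all merged regions, which is 45 regions. The difference, with GR minus without, was -0.23 points (-0.35 to -0.11), and -0.29 points when weighted to the score tiers. Another 66 sites had an untreated PR peak in A1-2 cells only and 31 in MTVL cells only, so that 131 (1.14%, 0.953 to 1.35) had one in either line. The highest untreated scores among the 34 were at chr16:22206691-22207378, with 1680 in untreated A1-2 and 140 in untreated MTVL cells and with 651 and 354 after R5020. At chr11:59317687-59318989 the untreated scores were 1296 and 132, and those after R5020 were 601 and 320. At chr15:89877653-89878935 they were 1224 and 160, followed by 901 and 1034.

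Many of the sites with PR before hormone stood on the short arm of chromosome 6, a stretch singled out after its values were seen. From 26 to 29 Mb there were 30 sites without GR, of which 19 had an untreated PR peak in A1-2 cells, 8 had one in MTVL cells and 0 had a GR peak after R5020 or before hormone. Of the 9 PR sites with GR there, 0 had an untreated peak of either receptor. The untreated A1-2 scores of the 19 ran from 220 to 1147 with a median of 451. At chr6:26520943-26521813 the scores were 1147 in untreated A1-2 and 299 in untreated MTVL cells and 404 and 506 after R5020. At chr6:27870041-27871116 they were 1008 and 370, followed by 411 and 453, with no GR Dex peak within 333701 bp. At chr6:28863791-28864419 they were 943 and 109, followed by 417 and 214. Without this stretch the untreated A1-2 shares were 0.706% without and 0.512% with GR, and the interval of their difference, -0.40 to 0.013 points, included 0. The share with an untreated peak in both lines was then 0.227%, and its difference of -0.16 points (-0.27 to -0.054) did not include 0.

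The gap to the nearest GR Dex peak is a description, as that list was part of the rule. No gap at random positions was computed, so nearness cannot be judged. The median gap from a site without GR to the nearest GR Dex peak was 32728 bp (quartiles 8964 and 97985 bp). That was between the median of 52494.5 bp for the 18796 regions with PR in MTVL cells only and that of 23877.5 bp for the 2926 with PR in A1-2 cells only. A GR Dex peak lay within 1000 bp of 5.50% of the sites (5.09 to 5.93), compared with 3.51% (3.25 to 3.78) of the MTVL-only and 7.83% (6.88 to 8.86) of the A1-2-only regions. Within 50000 bp it was 59.8%, 48.8% and 66.6%. Of the 647 GR Dex peaks within 1000 bp of a site without GR, 534 (82.5%, 79.4 to 85.4) belonged to a region with PR in both lines, as did 63.5% (62.8 to 64.2) of all GR Dex peaks. The sites farthest from GR were chr4:134831220-134831914, at 3980913 bp, and chrX:113341896-113342314, at 3920277 bp. Their PR scores were 118 and 271 for the first and 129 and 226 for the second, in A1-2 and MTVL cells.

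**Figure D4:**
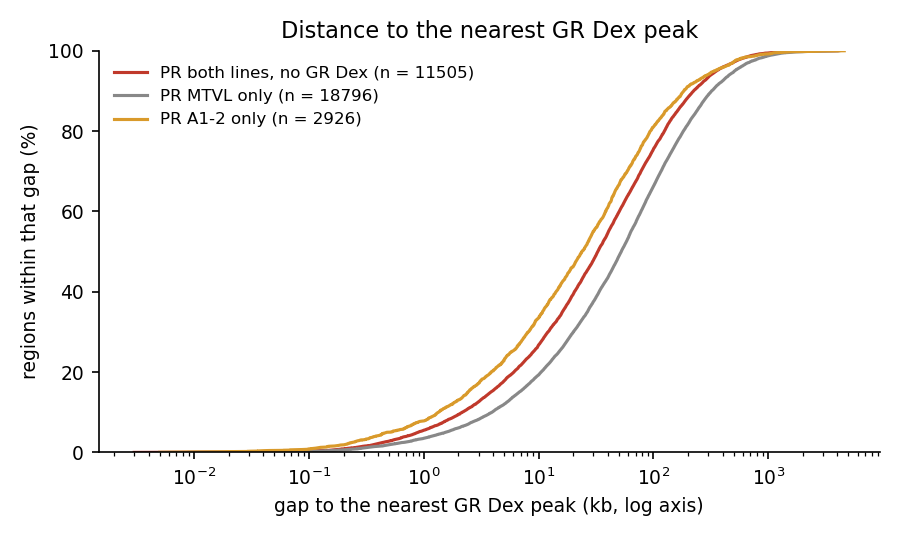
Lines give the share of regions (vertical, percent) whose nearest GR Dex peak lies within the gap on the horizontal log axis in kb, for PR regions of both lines without GR (red), of MTVL cells only (grey) and of A1-2 cells only (yellow). The red line runs between the others, with medians of 32728, 52494.5 and 23877.5 bp in that order.

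Some sites stood just on either side of the rule. A GR Dex peak lay within 50 bp of 16 sites and within 100 bp of 39. The nearest were 3 bp from chr16:27267583-27268398 (PR scores 402 in A1-2 and 999 in MTVL cells) and 4 bp from chr18:43967128-43968148 (536 and 464). On the other side, the GR peak overlapped a PR peak by at most 50 bp in 2 PR regions and by at most 100 bp in 6, the least being 2 bp at chr3:197249986-197253537 (PR scores 188 and 358, GR score 163). In strength, 661 PR regions counted as having GR on a GR Dex peak that scored under 110, and 1100 sites without GR had a lower PR score under 110. Of the regions with PR in 1 line only, 1785 MTVL-only and 684 A1-2-only regions scored under 110 in the list that called them. How near they came to a call in the other line is unknown.

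The sites were spread over all chromosomes, and their part of the PR regions differed between them. The lists behind this share chose the sites, so it is a description only. It was highest on chromosomes 19 (58.0%, 53.8 to 62.2) and 4 (57.9%, 54.7 to 61.0). It was lowest on chromosomes 16 (41.9%, 38.6 to 45.3) and 20 (42.0%, 38.4 to 45.6), followed by 14 (43.8%) and 11 (43.9%). Of the 23 chromosomes 5 had an interval below and 4 an interval above the share of all PR regions, and the intervals were not adjusted for their number. The lower PR score moved with it in part, and its part in the result was not tested beyond 1 tier. Its median was 235 and 233 on chromosomes 19 and 4, and 295, 268, 267 and 277 on chromosomes 16, 20, 14 and 11. Other chromosomes did not follow this order. Chromosome 17 had the highest median, 308, with a share of 52.5%, and chromosome 21 the lowest, 228, with a share of 52.7%. Among regions with a lower PR score of 200 to 500, of which 52.4% were without GR, chromosomes 16 and 20 stood at 44.9% and 45.0%, chromosome 11 at 46.4% and chromosome 14 at 50.2% (44.1 to 56.2). Chromosomes 18, 17, 4, 19 and 22 stood between 59.2% and 60.2%. Copy number of the chromosomes in either line was not analysed here.

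**Figure D5:**
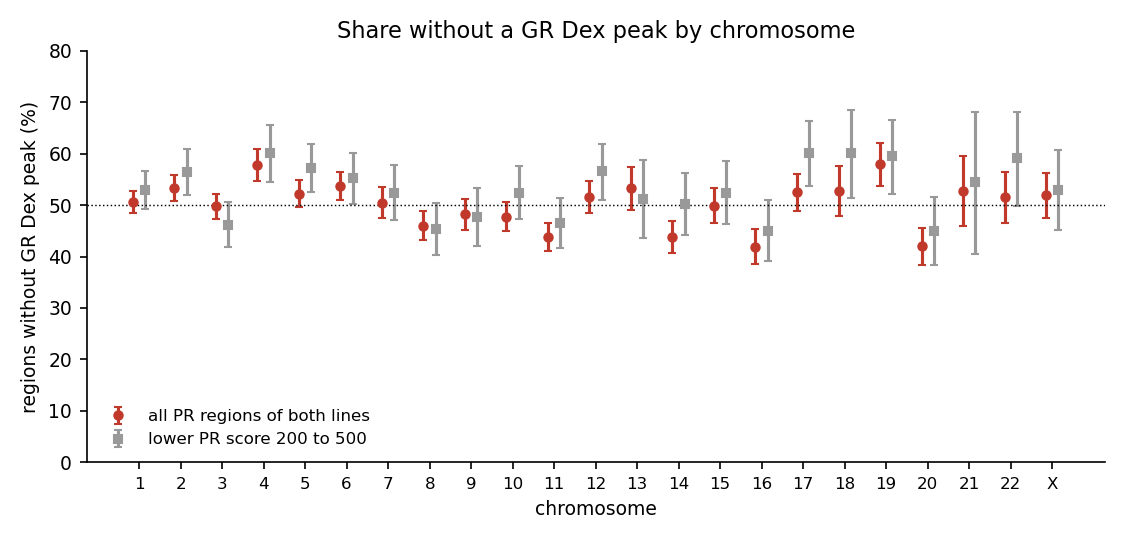
Points are the share of PR regions of both lines that had no GR Dex peak (vertical, percent) on each chromosome, over all such regions (circles) and over those with a lower PR score of 200 to 500 (squares), with exact 95% intervals; the dotted line is the share of all, 49.95%. Chromosomes 16 and 20 lie lowest at 41.9% and 42.0%, and chromosomes 4 and 19 highest at 57.9% and 58.0%. The lists behind the share chose the sites.

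The nearest other merged region was another site without GR for 25.8% of the sites (25.1 to 26.7) and for 21.9% (21.2 to 22.7) of the PR sites with GR, where such sites make up 22.4% of all merged regions. It was a PR site with GR for 22.9% (22.2 to 23.7) and 29.02% (28.2 to 29.9), which also make up 22.4% of all. An MTVL-only PR region was nearest for 36.4% (35.5 to 37.3) of the sites without GR, the share that such regions hold of all (36.5%), and for 28.6% (27.8 to 29.4) of those with GR. The gap to that nearest region had a median of 7210 bp, compared with 4978.5 bp for the PR sites with GR.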

How the data were processed

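Each file is the authors' list of peaks called in 1 library, with position and a deposited score, in the hg19 build. Tools named in the submitters' processing notes are Bowtie 1.1.1, MACS 1.4.2 and bedtools. No source used here gives the control library, settings, read filters or depth. The deposited score was read as 10 times the negative log10 of the p that MACS gives a peak, because the lowest value is 100 and the file names carry a p of 1e-10. Scores of different libraries were not compared as levels. The lower of a region's 2 PR scores was used to rank regions and to set tiers of strength. Samples were grouped by title.

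Members, lists and comparisons were chosen with earlier results of these data known. Named sites were, by rule, the 5 with the highest lower PR score, the highest GR R5020 score, the highest untreated score among sites with untreated PR in both lines, and the sites farthest from and nearest to GR; the text gives the first ones. Others are said to be chosen after their values were seen. Intervals are exact (Clopper-Pearson), and those of differences combine the exact intervals of both shares. Runs of close peaks were at least 5 peaks of an untreated A1-2 or the GR R5020 list with gaps of at most 20 kb. Differences weighted to tiers average the tier differences over the tiers of the sites without GR. Planned counts of motifs and genes were not run, as the reference tables are of another build and 0 genes were placed. The merging was tested on simulated data, where 1631 of 1631 such sites among 11500 regions were found, and bedtools 2.31.1 gave the same 51444 regions and 11505 sites. Computations used Python 3.11.15, numpy 2.4.6, pandas 2.3.3, scipy 1.17.1 and matplotlib 3.10.9.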

Additional observations from a re-analysis of the deposited data

How the results depend on the processing

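The 12 results were recomputed in 92 alternative values, of which 68 fell inside the 95% interval of the main value (or within 1.5 times, for the number of sites), 24 moved further and 0 reversed. Settings not fixed beforehand were a score of at least 200 in the GR Dex list or in the PR lists alone, leaving out chromosome 6 from 26 to 29 Mb, and all values for untreated PR in both lines and for the untreated A1-2 difference. When every list was restricted to scores from 200 up, the sites without GR were 57.4% of PR regions, the shares with an untreated peak were 0.689% (A1-2 PR), 0.271% (MTVL PR), 0.0123% (GR) and 0.172% (PR in both lines), the GR R5020 difference was 0.655 points, and the median gap to GR and between midpoints was 64567 and 39 bp. At 200 in the GR Dex list alone, the sites were 69.9% of PR regions, the GR R5020 difference was 2.37 points and the gap to GR was 70426 bp; the interval of the untreated A1-2 difference, -0.36 to 0.10 points, then included 0. At 200 in both PR lists alone there were 5031 sites, 35.9% of PR regions, the shares were 0.378% (GR R5020), 1.09% (untreated MTVL PR), 0.0199% (untreated GR) and 0.576% (untreated PR in both lines), the last differing by -0.49 points from the sites with GR, and the distances were 31254 and 39 bp. Counting GR within 500 bp as present gave 48.5% and 34762 bp. Weighting to tiers moved the GR R5020 difference to 0.235 points, and leaving out the chromosome 6 stretch moved the untreated A1-2 share to 0.706%. Keeping peaks at input peaks, asking for an overlap of 50% of the shorter peak and leaving out runs of close peaks moved none of the 12. The number of sites without GR thus depended on the score asked of each list, and the depth behind those scores is unknown. No paired analysis was possible because each condition had 1 library.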

Other observations

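Most sites without GR stood alone, and a few formed rows. Taking successive sites with gaps of at most 50 kb and no region with GR between them, 6567 sites (57.1%) were alone and 385 (3.35%) stood in 69 rows of 5 or more. The largest number in a row was 9, found in 2 rows. The first spanned 104 kb, from chr9:12711535 to 12815411, with 3 other regions inside. Its A1-2 scores ran from 110 to 502 (median 163) and its MTVL scores from 140 to 1688 (median 1104), and the nearest GR Dex peak was 1.295 kb away. The other, chr14:34567022-34679090, spanned 112 kb and had A1-2 scores from 119 to 666 (median 318) and MTVL scores from 102 to 2587 (median 242), with GR no nearer than 12.8 kb. In neither row did a site overlap a peak of untreated cells or a GR peak after R5020.

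When peaks at input peaks were kept, 143 of 11647 sites overlapped an input peak, with a median score of 182 in A1-2 and 293 in MTVL cells.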
